A study of Mus musculus with 9 samples.

Results

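Iron is stored, taken up, exported and released from heme by a small group of proteins, and 10 of the genes behind them were examined here: Ftl1, Fth1, Ncoa4, Tfrc, Slc11a2, Steap3, Slc40a1, Ireb2, Aco1 and Hmox1. All 10 were found among the 22396 genes of the deposited counts. They were chosen by name for their known roles, and the choice was made with earlier values of these same libraries in view, namely the CPM (each count scaled to the total of its library) of each group. Their values are therefore given as a description with no p-value of their own and support nothing, and counts of calls among them stand only beside those of all genes.

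RNA bound to FLAG-tagged RIG-I, a cytosolic RNA sensor, was recovered by immunoprecipitation from B16F10 cells, a mouse melanoma line, and sequenced after removal of ribosomal RNA. All cells stably expressed the FLAG-tagged RIG-I construct and 1 of 3 short hairpin RNAs: a control (shCtr), shOSGEP#1 or shOSGEP#2. The last pair target OSGEP, the catalytic subunit of the KEOPS complex, which makes the t6A modification of tRNAs that read codons beginning with A. There were 3 libraries per group and 9 in all, and the replicates are described as independent experiments. The labels give the genotype as wild type for shCtr and as OSGEP knockdown for the other groups. A CPM here is thus a part of what RIG-I pulled down. Lysate RNA was not analysed here, so a change in the amount of an mRNA in the cell and a change in its binding to RIG-I cannot be told apart.

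The shCtr libraries held 40333037, 47750758 and 41805753 counts (replicates 1, 2 and 3), the shOSGEP#1 libraries 34551436, 50224299 and 30697653, and replicates 1 and 3 of shOSGEP#2 25460689 and 14914731. The library of shOSGEP#2 replicate 2 held 568995 counts on 4196 genes, against 11733 to 13958 genes in the others, and its values are given apart. Fold changes and tests come from the 8 other libraries, so shOSGEP#2 has 2 libraries in them.

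As background, ferritin is a shell of light chains (Ftl1) and heavy chains (Fth1) that holds iron inside the cell, and cells take iron up mainly as transferrin through the transferrin receptor. When iron is scarce, the iron regulatory proteins bind hairpins called iron-responsive elements, which blocks translation of the ferritin mRNAs and protects the mRNA of the receptor. Heme oxygenase opens the heme ring and frees its iron, and the heme-regulated kinase HRI and the repressor BACH1 respond to the heme level.

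Osgep, the target of both hairpins, served as a check of the labels. It had 19.1, 19.9 and 15.5 CPM in shCtr replicates 1, 2 and 3, 3.76, 1.15 and 1.53 CPM in shOSGEP#1, and 0.0786 and 2.88 CPM in shOSGEP#2 replicates 1 and 3. Every shOSGEP library lay below every shCtr library, in the direction the labels give. The log2 fold change against shCtr was −3.10 (standard error 0.73, adjusted p = 0.0128) for shOSGEP#1 and −3.84 (standard error 0.93, adjusted p = 0.015) for shOSGEP#2, both by the quasi-likelihood test of edgeR, adjusted by Benjamini-Hochberg across 12744 genes, and both above the threshold of 0.01. The value in shOSGEP#2 replicate 1 stands for 2 counts, which is below the floor of 3 counts. Without shOSGEP#2 replicate 1 the log2 fold change for shOSGEP#2 was −2.78, and without replicate 3 it was −7.86. Ddx58, the gene of RIG-I, had 180, 184 and 278 CPM in shCtr, 232, 216 and 327 CPM in shOSGEP#1 and 402 and 429 CPM in shOSGEP#2, with log2 fold changes of 0.26 (standard error 0.21, edgeR adjusted p = 0.427) and 0.86 (standard error 0.23, edgeR adjusted p = 0.0239). Whether these counts include mRNA of the tagged construct depends on its sequence, which was not examined here.

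Among the libraries, 2 stood apart. In shCtr replicate 3, Hmox1 had 131 CPM against 1411 and 1222 CPM in the other shCtr libraries, and Slc40a1, Blvrb and Slc48a1 were also lowest there within shCtr. The same library had 784 CPM of Mitf, a melanocyte transcription factor, against 297 and 357 CPM. These genes were picked out after their values were seen, and the part of this library in the group differences is given below by values without it. The second is shOSGEP#2 replicate 2.

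The defining markers of the melanocyte lineage were present. All 7 melanocyte markers (Mlana, Pmel, Tyr, Tyrp1, Dct, Mitf and Sox10) were detected in each of the 8 libraries, with a summed level of 6336, 6039 and 8473 CPM in shCtr, 6288, 7565 and 6840 CPM in shOSGEP#1 and 2617 and 3374 CPM in shOSGEP#2. Tyrp1 was the most abundant of them in each of these libraries, and both shOSGEP#2 sums lay below those of the other groups. The sums hide differences between markers: Tyr, the tyrosinase gene, had 153, 153 and 193 CPM in shCtr, 30.4, 26.1 and 27.3 CPM in shOSGEP#1 and 5.93 and 19.8 CPM in shOSGEP#2, so that every shOSGEP library lay below shCtr. Dct, which acts later in pigment synthesis, ranged from 1242 to 1480 CPM in shCtr, from 1621 to 2060 CPM in shOSGEP#1 and from 363 to 380 CPM in shOSGEP#2, so that shOSGEP#1 lay above shCtr and shOSGEP#2 below. The part of these marker differences in the iron gene values of either hairpin was not tested. Macrophages handle much of the iron of the body, and their 8 markers summed to at most 5.53 CPM in any library, with Cd163, Marco and Vsig4 at 0 in every one and Cd68 or Lyz2 the most abundant wherever any was counted. The 5 T cell markers summed to at most 1.68 CPM, with Cd8a and Trbc1 at 0 throughout and Cd4, Cd3g or Cd3e the most abundant. The 6 fibroblast markers summed to 4.44, 6.16 and 7.22 CPM in shCtr, 5.15, 3.64 and 7.26 CPM in shOSGEP#1 and 16.5 and 39.1 CPM in shOSGEP#2, with Col1a1, Col1a2 or Pdgfra the most abundant and Lum at 0.

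The 8 erythroid markers, from the lineage that uses most heme, summed to 1.91, 1.80 and 1.70 CPM in shCtr, 2.84, 2.29 and 18.0 CPM in shOSGEP#1 and 1.85 and 16.4 CPM in shOSGEP#2 replicates 1 and 3. Alas2, the erythroid enzyme that starts heme synthesis, was at 0 in all 9 libraries, as was Hbb-bt. Hba-a1 was the most abundant marker in shOSGEP#1 replicate 3 (13.4 CPM) and shOSGEP#2 replicate 3 (11.5 CPM), and Epor in the other 6. Hba-a1 has the near-identical copy Hba-a2, so the split of reads between them is uncertain.

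In shCtr the order of the 10 genes was led by ferritin. Levels between genes are compared per length, as counts divided by transcript length and scaled as CPM is over the 21360 genes with a transcript. Ftl1 had a level of 19144 ± 2500 (SD, n = 3), the highest of all genes on this scale, followed by Fth1 with 3642 ± 1092 and Hmox1 with 1355 ± 1015. Ireb2 had 97.6 ± 12.5, Ncoa4 69.5 ± 5.46, Tfrc 58.2 ± 8.08 and Slc11a2 55.0 ± 4.53. Aco1 had 31.8 ± 1.56, Slc40a1 26.5 ± 15.9 and Steap3 16.7 ± 3.15. The ranges over the 3 shCtr libraries overlapped between the neighbours Tfrc and Slc11a2, Ncoa4 and Tfrc, Aco1 and Slc40a1, and Slc40a1 and Steap3, so their order is not settled beyond the spread. Ftl1 and Fth1, Fth1 and Hmox1, Ireb2 and Ncoa4, and Slc11a2 and Aco1 did not overlap, while the lowest Hmox1 value, 190 in replicate 3, still lay above the highest of Ireb2, 109.

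Storage. Ftl1 (ENSMUSG00000050708), the ferritin light chain, had 8943, 8283 and 6953 CPM in shCtr replicates 1, 2 and 3, 3481, 3042 and 1952 CPM in shOSGEP#1, and 5453 and 3591 CPM in shOSGEP#2 replicates 1 and 3. All 5 shOSGEP libraries were below all 3 shCtr libraries, and the ranges of shOSGEP#1 and shOSGEP#2 did not overlap. The log2 fold change against shCtr was −1.53 (standard error 0.23) for shOSGEP#1 and −0.92 (standard error 0.26) for shOSGEP#2, and 0.60 (standard error 0.25) for shOSGEP#2 against shOSGEP#1. The last value was 0.23 without shOSGEP#2 replicate 1, 0.90 without replicate 3 and 0.27 with all 9 libraries.

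Fth1 (ENSMUSG00000024661), the ferritin heavy chain, which oxidises the iron as it enters, had 1871, 1541 and 1001 CPM in shCtr, 768, 496 and 696 CPM in shOSGEP#1 and 740 and 798 CPM in shOSGEP#2. The shOSGEP libraries again lay below the shCtr libraries, and the libraries of the hairpins against Osgep overlapped each other. Its log2 fold change was −1.18 (standard error 0.23) for shOSGEP#1 and −1.03 (standard error 0.26) for shOSGEP#2. Both ferritin genes together took 1.08, 0.982 and 0.795% of the counts in shCtr, 0.425, 0.354 and 0.265% in shOSGEP#1 and 0.619 and 0.439% in shOSGEP#2. Per length, the ratio of Ftl1 to Fth1 ran from 4.59 to 6.66 in shCtr, from 2.69 to 5.89 in shOSGEP#1 and from 4.32 to 7.07 in shOSGEP#2, with the groups overlapping.

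Ftl1 has a near-identical copy, Ftl1-ps1, whose annotated transcript matches it at 906 of 910 aligned bases, so reads of either can be counted on the other. The copy held 0.49 to 0.703% of the counts of both in the 8 libraries. It had 57.2, 53.5 and 37.1 CPM in shCtr, 19.4, 20.03 and 9.61 CPM in shOSGEP#1 and 38.0 and 25.4 CPM in shOSGEP#2. Its group means fell in the order seen for Ftl1, and shOSGEP#2 replicate 1 lay above shCtr replicate 3. Its log2 fold change was −1.60 (standard error 0.29) for shOSGEP#1 and −0.72 (standard error 0.33) for shOSGEP#2. No p is given for it, since its reads cannot be told apart from those of the member Ftl1. Whether these are its own transcripts was not tested.

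Ncoa4 (ENSMUSG00000056234), the receptor that delivers ferritin to the lysosome for breakdown, ranged from 114 to 129 CPM in shCtr, from 113 to 120 CPM in shOSGEP#1 and from 140 to 157 CPM in shOSGEP#2. The shCtr and shOSGEP#1 libraries overlapped and both shOSGEP#2 libraries were above them. Its log2 fold change was −0.09 (standard error 0.13) for shOSGEP#1 and 0.18 (standard error 0.15) for shOSGEP#2.

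**Figure D1:**
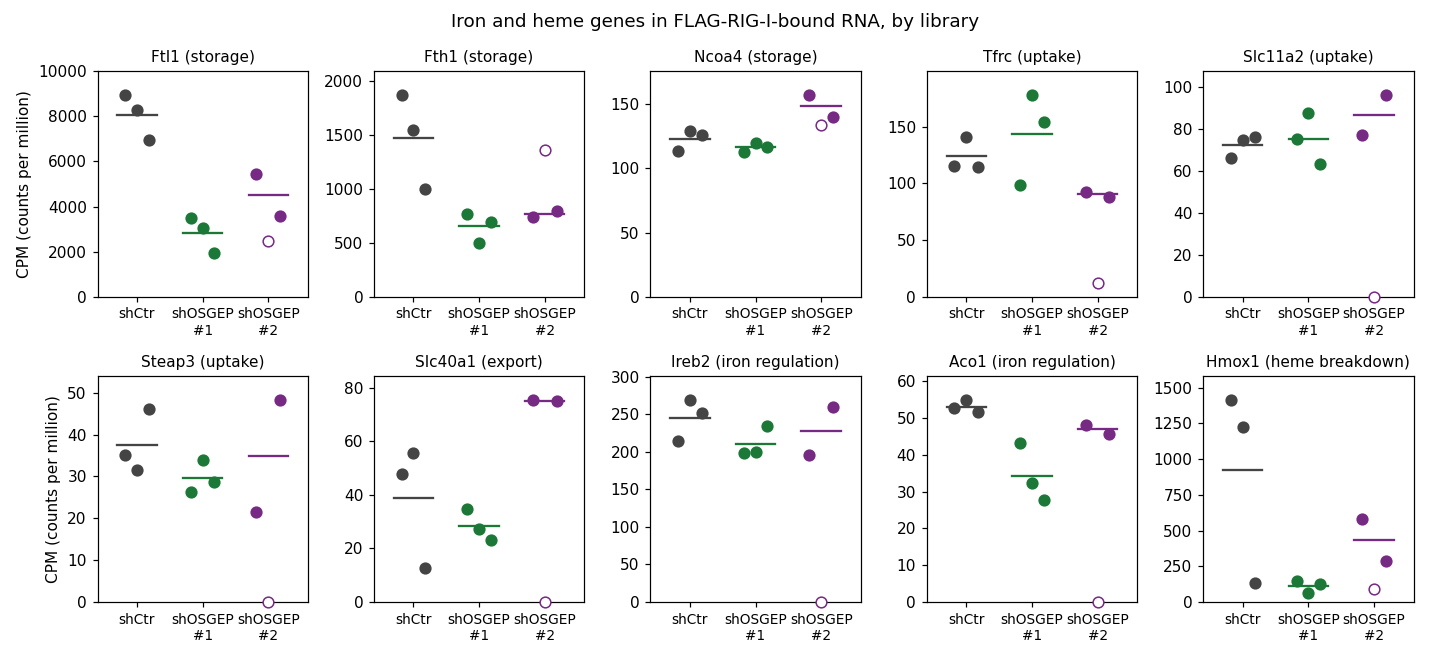
CPM of the 10 iron and heme genes in each library, on linear axes that start at 0, with 1 panel per gene, 1 filled point per library, a line at the mean of the filled points of a group, and an open point for shOSGEP#2 replicate 2, which is left out of the means. Replicates 1, 2 and 3 run from left to right within a group; Ftl1 is lower in every shOSGEP library than in any shCtr library, and Hmox1 of shCtr replicate 3 (131 CPM) sits among the shOSGEP#1 points.

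Uptake. Tfrc (ENSMUSG00000022797), the transferrin receptor, had 116, 141 and 115 CPM in shCtr, 98.5, 178 and 154 CPM in shOSGEP#1 and 92.4 and 88.0 CPM in shOSGEP#2. The shOSGEP#1 libraries spread across and beyond the range of shCtr, whereas both shOSGEP#2 libraries were below every other library. The log2 fold change was 0.20 (standard error 0.20) for shOSGEP#1, −0.55 (standard error 0.23) for shOSGEP#2, and −0.75 (standard error 0.23) for shOSGEP#2 against shOSGEP#1. With a library left out, these values ran from 0.015 to 0.41, from −0.62 to −0.45 and from −0.95 to −0.56.

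Slc11a2 (ENSMUSG00000023030) encodes DMT1, which moves ferrous iron out of the endosome, and ranged from 66.1 to 76.3 CPM in shCtr, from 63.5 to 87.7 CPM in shOSGEP#1 and from 77.1 to 96.3 CPM in shOSGEP#2. Steap3 (ENSMUSG00000026389), the reductase that prepares endosomal iron for DMT1, ranged from 31.4 to 46.0 CPM in shCtr, from 26.3 to 33.97 CPM in shOSGEP#1 and from 21.6 to 48.2 CPM in shOSGEP#2. For Steap3 the groups overlapped, and for Slc11a2 the shOSGEP#1 libraries overlapped those of both other groups. The log2 fold changes of this pair lay between −0.35 and 0.16 against shCtr. Steap3 changed sign with the shOSGEP#2 library kept: its log2 fold change for shOSGEP#2 was 0.23 without replicate 1 and −0.87 without replicate 3. The value of Slc11a2 for shOSGEP#1, 0.05, also changed sign and ran from −0.076 to 0.16 with a library left out.

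Export. Slc40a1 (ENSMUSG00000025993) encodes ferroportin, the iron exporter of the plasma membrane, and had 47.6, 55.7 and 12.7 CPM in shCtr, 34.7, 27.1 and 22.97 CPM in shOSGEP#1 and 75.3 and 74.96 CPM in shOSGEP#2. Both shOSGEP#2 libraries were above the other 6, and the shOSGEP#1 libraries lay inside the wide range of shCtr. The log2 fold change was −0.46 (standard error 0.40) for shOSGEP#1, 0.87 (standard error 0.44) for shOSGEP#2 and 1.33 (standard error 0.44) for shOSGEP#2 against shOSGEP#1. Without shCtr replicate 3 the values against shCtr were −0.88 and 0.45, and without shCtr replicate 2 they were −0.11 and 1.23, the ends of the range over the 8 fits that leave out a library.

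Regulation. Aco1 (ENSMUSG00000028405) encodes iron regulatory protein 1, which also works as a cytosolic aconitase, and had 52.6, 54.8 and 51.5 CPM in shCtr, 43.2, 32.2 and 27.6 CPM in shOSGEP#1 and 48.1 and 45.7 CPM in shOSGEP#2. The 3 groups did not overlap, with shCtr highest and shOSGEP#1 lowest. The log2 fold change was −0.64 (standard error 0.18) for shOSGEP#1 and −0.27 (standard error 0.20) for shOSGEP#2. Ireb2 (ENSMUSG00000032293), the gene of iron regulatory protein 2, ranged from 214 to 269 CPM in shCtr, from 198 to 235 CPM in shOSGEP#1 and from 195 to 260 CPM in shOSGEP#2. These ranges overlapped, and the log2 fold changes were −0.23 (standard error 0.16) and −0.20 (standard error 0.18).

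Heme breakdown. Hmox1 (ENSMUSG00000005413), the inducible heme oxygenase, had 1411, 1222 and 131 CPM in shCtr, 150, 62.4 and 129 CPM in shOSGEP#1 and 583 and 284 CPM in shOSGEP#2. The groups shCtr and shOSGEP#1 overlapped through shCtr replicate 3 alone, and both shOSGEP#2 libraries lay above shOSGEP#1 and below the other shCtr libraries. The log2 fold change was −3.03 (standard error 0.69) for shOSGEP#1 and −1.17 (standard error 0.74) for shOSGEP#2, and 1.86 (standard error 0.71) for shOSGEP#2 against shOSGEP#1. Without shCtr replicate 3 the values against shCtr were −3.54 and −1.68. Without shOSGEP#2 replicate 1 or 3 in turn, the value for shOSGEP#2 was −1.82 or −0.72 against shCtr and 1.21 or 2.31 against shOSGEP#1.

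With the threshold of an adjusted p under 0.01, 9.67% of the 12744 genes tested were called for shOSGEP#1 against shCtr (1232 genes, 5% higher and 4.67% lower), and 2 of the 10 iron genes, Ftl1 and Fth1, were among them, both lower. The call of Fth1 was lost without shCtr replicate 1 or 2 or shOSGEP#1 replicate 2 or 3, with log2 fold changes from −1.39 to −0.98 over the 8 fits that leave out a library. For shOSGEP#2 against shCtr 9.55% of all genes were called (1217 genes, 5.66% higher and 3.89% lower) and 0 of the 10 by edgeR. At an unadjusted p under 0.05 (edgeR) were 3 of the 10, beside 4541 of the 12744 genes. DESeq2 called 2 of the 10, beside 2395 of all genes. For shOSGEP#2 against shOSGEP#1 10.8% were called (1375 genes, 6.23% higher and 4.56% lower) and again 0 of the 10 by edgeR. At an unadjusted p under 0.05 (edgeR) were 4 of the 10, beside 4722 of the 12744 genes. DESeq2 called 2 of the 10, beside 2595 of all genes. Since the genes were selected on results of these contrasts, nothing is read from these counts. The median log2 fold change of the 10 was −0.41 for shOSGEP#1 and −0.24 for shOSGEP#2, beside 0.00 and −0.06 over all genes tested. Both comparisons use the same shCtr libraries. With all 9 libraries edgeR called 0 genes in each comparison, with 620, 1240 and 1325 of 12337 at an unadjusted p under 0.05, and DESeq2 was not run on all 9.

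In shOSGEP#2 replicate 2, 5 of the 10 genes had counts and 5 had none. Ftl1 had 1400 counts, a level of 2460 CPM (95% exact Poisson interval 2333 to 2593), below the other shOSGEP#2 libraries. Fth1 had 774 counts and 1360 CPM (interval 1266 to 1460), which is above them and inside the range of shCtr. Ncoa4 had 134 CPM (interval 105 to 167), Hmox1 89.6 CPM (interval 66.7 to 118) and Tfrc, with 7 counts, 12.3 CPM (interval 4.95 to 25.3). These intervals and the floor cover error of counting alone, because reads carried no molecular identifiers and 1 molecule can give several.

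Ireb2, Aco1, Slc40a1, Slc11a2 and Steap3 had 0 counts in that library, where the floor of 3 counts stands for 5.27 CPM. At the mean level of the other shOSGEP#2 libraries, Ireb2 would have had 130 counts at this depth, Slc11a2 49.3, Slc40a1 42.8, Aco1 26.7 and Steap3 19.8. Such zeros were common in the library: of 8297 genes with at least 10 counts expected in this way, 4427 (53.4%) had none. Of the 1298 genes with at least 100 expected, as for Ireb2, 242 (18.6%) had none. Erythroid markers summed to 851 CPM there, 807 CPM of it Hba-a1, melanocyte markers to 1664 CPM with Sox10 the most abundant, fibroblast markers to 68.5 CPM, and macrophage and T cell markers to 0. Of the other genes given by name, Osgep, Ddx58, Bach1, Cp, Steap2, Snx3, Blvrb and Eif2ak1 had 0 counts in this library. Pcbp4 had 139 CPM, Slc48a1 100.2 CPM, Trf 80.8 CPM, Nubp2 79.1 CPM and Lrp1 288 CPM, and Ftl1-ps1 and Nfu1 had 8 and 7 counts. The part of the marker levels in the iron gene values of the library was not tested.

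The iron-responsive elements are printed because they are the sequence through which Ireb2 and Aco1 products act on other members. The search asked for a C, any 5 bases, the letters CAGTG, a base other than G, and 5 bases that pair with the first 5 (G to T pairs allowed), on the sense strand of the UTRs of 1 GENCODE transcript per gene. Capitals mark the loop. Only the 5 bases on each side of it were required to pair, with an unpaired C before the first 5, and further out some runs hold bases that do not pair.
Ftl1 5′UTR: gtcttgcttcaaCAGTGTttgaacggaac
Fth1 5′UTR: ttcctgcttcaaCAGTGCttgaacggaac
Slc40a1 5′UTR: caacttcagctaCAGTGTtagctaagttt
Tfrc 3′UTR, element 1: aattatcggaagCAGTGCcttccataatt
Tfrc 3′UTR, element 2: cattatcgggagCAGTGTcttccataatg
Tfrc 3′UTR, element 3: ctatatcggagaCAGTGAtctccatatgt
Tfrc 3′UTR, element 4: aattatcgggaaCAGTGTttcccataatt

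Of all genes, 17 of 19188 5′UTRs (0.0886%) and 83 of 20202 3′UTRs (0.411%) held such a match. The other 6 members had none in the transcript searched, and among the other iron and heme genes Alas2 and Bola3 had 1 each. An element in another transcript of a gene, or with looser pairing, would have been missed, so these 6 may still have one. A match is a run of letters and says nothing of binding in these cells. Of the genes with an element in the 5′UTR, Ftl1 and Fth1 were lower in every shOSGEP library of the fit than in shCtr. Slc40a1 was higher in both shOSGEP#2 libraries and inside the shCtr range in shOSGEP#1. Tfrc, with elements in the 3′UTR, was lower in both shOSGEP#2 libraries and spread across and beyond the shCtr range in shOSGEP#1. Whether the elements bear on these values was not tested.

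Codons beginning with A (ANN) are those read by tRNAs that carry t6A, and their share in the coding sequence differed among the 10 genes. Ftl1 had 17.5% of such codons, a share above that of 4.2% of genes only, and Steap3 22.95%, Slc11a2 23.6%, Fth1 24.7% and Hmox1 26.0%. Aco1 had 27.4%, Ireb2 27.8%, Ncoa4 28.2%, Slc40a1 28.8% and Tfrc 30.0%. The median over 21215 genes was 27.7%, with quartiles of 24.1 and 30.8%. Whether this share bears on the RNA recovered with RIG-I was not tested.

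A wider list held 96 other genes of iron and heme metabolism. Of these, 82 passed the filter on low counts, and of the 14 that did not, 7 (Ftmt, Hamp, Hamp2, Bmp6, Alas2, Flvcr2 and Cd163) had 0 counts in the 8 libraries. For shOSGEP#1 against shCtr, 7 of the 82 passed the threshold (8.54%), 1 higher and 6 lower, with a median log2 fold change of −0.07 over the 82. For shOSGEP#2, 8 passed (9.76%), 3 higher and 5 lower, with a median of −0.06. These shares and medians were close to those of all genes given above.

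Among heme breakdown, transport and sensing, 3 of 13 tested genes fell for shOSGEP#1 and 1 for shOSGEP#2 (23.1 and 7.69%, beside 9.67 and 9.55% called among all genes tested). Blvrb, a biliverdin reductase that acts after heme oxygenase, had 119, 120 and 33.1 CPM in shCtr, 23.4, 13.5 and 18.3 CPM in shOSGEP#1 and 39.4 and 75.9 CPM in shOSGEP#2, and shCtr overlapped shOSGEP#2 through replicate 3. It fell by 2.31 on the log2 scale for shOSGEP#1 (standard error 0.43, edgeR adjusted p = 0.00418), and the value for shOSGEP#2 was −0.76 (standard error 0.47, edgeR adjusted p = 0.277). Slc48a1, a carrier of heme out of the endosome, had 801, 795 and 405 CPM in shCtr, 309, 295 and 235 CPM in shOSGEP#1 and 465 and 379 CPM in shOSGEP#2. It fell by 1.27 for shOSGEP#1 (standard error 0.25, edgeR adjusted p = 0.00491), with −0.75 for shOSGEP#2 (standard error 0.28, edgeR adjusted p = 0.0769). Both calls were lost without shCtr replicate 1 or 2 or shOSGEP#1 replicate 2 or 3, and that of Slc48a1 also without shOSGEP#1 replicate 1. Over the 8 fits the values ran from −2.71 to −2.05 for Blvrb and from −1.52 to −1.12 for Slc48a1. For shOSGEP#2 they ran from −1.27 (without shOSGEP#2 replicate 3) to −0.38 (without replicate 1) for Blvrb, with −1.15 without shCtr replicate 3. Those of Slc48a1 ran from −1.005 to −0.58, and the first, without shCtr replicate 3, passed the threshold.

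Bach1, the heme-sensing repressor of Hmox1 and of the ferritin genes, had 129, 141 and 120 CPM in shCtr, 83.9, 71.7 and 81.0 CPM in shOSGEP#1 and 55.3 and 52.1 CPM in shOSGEP#2. The 3 groups did not overlap. It fell by 0.74 for shOSGEP#1 (standard error 0.14, edgeR adjusted p = 0.00384) and by 1.37 for shOSGEP#2 (standard error 0.16, edgeR adjusted p = 0.000288). The call for shOSGEP#2 held with each library left out, and that for shOSGEP#1 was lost without shCtr replicate 1 or 2 or shOSGEP#1 replicate 2. Eif2ak1, the gene of HRI, had 81.3, 67.0 and 58.7 CPM in shCtr, 67.2, 69.7 and 73.3 CPM in shOSGEP#1 and 82.0 and 69.7 CPM in shOSGEP#2. These overlapped, with log2 fold changes of 0.01 (standard error 0.16, edgeR adjusted p = 0.969) and 0.05 (standard error 0.18, edgeR adjusted p = 0.872).

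Among uptake and endosomal reduction, 0 of 14 tested genes were called for shOSGEP#1 by edgeR or by DESeq2. Beside this, edgeR called 9.67% of all genes tested and DESeq2 called 2420 genes. At an unadjusted p under 0.05 (edgeR) were 2 of the 14, beside 4450 of the 12744 genes tested. For shOSGEP#2, 4 of the 14 were called (28.6%), 2 in each direction, beside 9.55% of all genes tested. The lists are small, and a difference between the hairpins was not tested for any list as a whole. Steap2, a metalloreductase related to Steap3, had 34.9, 29.4 and 26.7 CPM in shCtr, 28.0, 34.7 and 25.9 CPM in shOSGEP#1 and 114 and 105 CPM in shOSGEP#2. It rose by 1.76 for shOSGEP#2 (standard error 0.19, edgeR adjusted p = 0.000206). Lrp1, an endocytic receptor that also takes up heme bound to hemopexin, had 48.2 ± 8.44 CPM in shCtr (SD, n = 3) and 129 and 125 CPM in the shOSGEP#2 libraries, and rose by 1.30 (standard error 0.18, edgeR adjusted p = 0.00063). Trf, the gene of transferrin, had 151, 160 and 157 CPM in shCtr, 154, 228 and 180 CPM in shOSGEP#1 and 61.3 and 83.6 CPM in shOSGEP#2, where it fell by 1.21 (standard error 0.20, edgeR adjusted p = 0.00193). The calls of Steap2 and Lrp1 held with each library left out, and that of Trf was lost without shOSGEP#2 replicate 1. Snx3, which recycles the transferrin receptor, fell by 0.86 (standard error 0.19, edgeR adjusted p = 0.00917). With a library left out, the call of Snx3 was kept only without shOSGEP#1 replicate 3 or shOSGEP#2 replicate 1, with values from −1.13 to −0.64 over the 8 fits. That call was also lost with a replicate block, with library totals without TMM and with only the groups compared.

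Among storage, chaperones and export, 2 of 7 tested genes passed the threshold for shOSGEP#1 and 1 did for shOSGEP#2 (28.6 and 14.3%, beside 9.67 and 9.55% of all genes). Cp, the gene of ceruloplasmin, a ferroxidase that works with ferroportin, had 22.2, 24.2 and 29.5 CPM in shCtr, 37.1, 64.1 and 63.0 CPM in shOSGEP#1 and 79.1 and 133 CPM in shOSGEP#2. All 5 shOSGEP libraries were above shCtr. It rose by 1.10 for shOSGEP#1 (standard error 0.25, edgeR adjusted p = 0.00986) and by 1.96 for shOSGEP#2 (standard error 0.27, edgeR adjusted p = 0.000712). The call for shOSGEP#2 held with each library left out, and that for shOSGEP#1 only without shOSGEP#1 replicate 1 or either shOSGEP#2 library (0.97 to 1.32 over the 8 fits). Pcbp4, of the family of poly(C)-binding proteins that includes iron chaperones, fell by 0.80 for shOSGEP#1 (standard error 0.16, edgeR adjusted p = 0.00598), kept only without shOSGEP#1 replicate 3 or either shOSGEP#2 library (−0.89 to −0.65).

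Of 32 tested genes of mitochondrial iron and iron-sulphur clusters, 2 fell for shOSGEP#1 and 1 for shOSGEP#2 (6.25 and 3.12%, beside 9.67 and 9.55% of all genes). Nubp2, of the cytosolic cluster assembly scaffold, had 105, 113 and 117 CPM in shCtr, 63.7, 62.4 and 51.9 CPM in shOSGEP#1 and 70.0 and 73.2 CPM in shOSGEP#2, with all 5 shOSGEP libraries below shCtr. It fell by 0.93 (standard error 0.14, edgeR adjusted p = 0.00139) and by 0.74 (standard error 0.16, edgeR adjusted p = 0.00776). With a library left out, the first call was lost only without shCtr replicate 2, and the second was kept only without shOSGEP#1 replicate 3 (−0.77 to −0.70 over the 8 fits). The second call was also lost with a replicate block, with library totals without TMM and with only the groups compared. Nfu1, a late-acting cluster carrier, fell by 0.93 for shOSGEP#1 (standard error 0.19, edgeR adjusted p = 0.00618), a call lost without shCtr replicate 1 or 2 or shOSGEP#1 replicate 2 or 3 (−1.05 to −0.82). Its value for shOSGEP#2 was 0.34 (standard error 0.21, edgeR adjusted p = 0.263), from 0.13 to 0.52 with a library left out. Nfu1 had 64.4 and 51.4 CPM in shOSGEP#2, above the 36.4 to 49.8 CPM of shCtr. Of 14 tested genes of heme synthesis, 0 were called for shOSGEP#1 by edgeR or DESeq2. At an unadjusted p under 0.05 (edgeR) were 5 of the 14, beside 4450 of the 12744 genes tested. The iron regulation list had 2 tested genes, with 0 called for either hairpin by edgeR or DESeq2. For each hairpin 1 of them had an unadjusted p under 0.05 (edgeR), beside 4450 and 4541 of the 12744 genes tested.

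**Figure D2:**
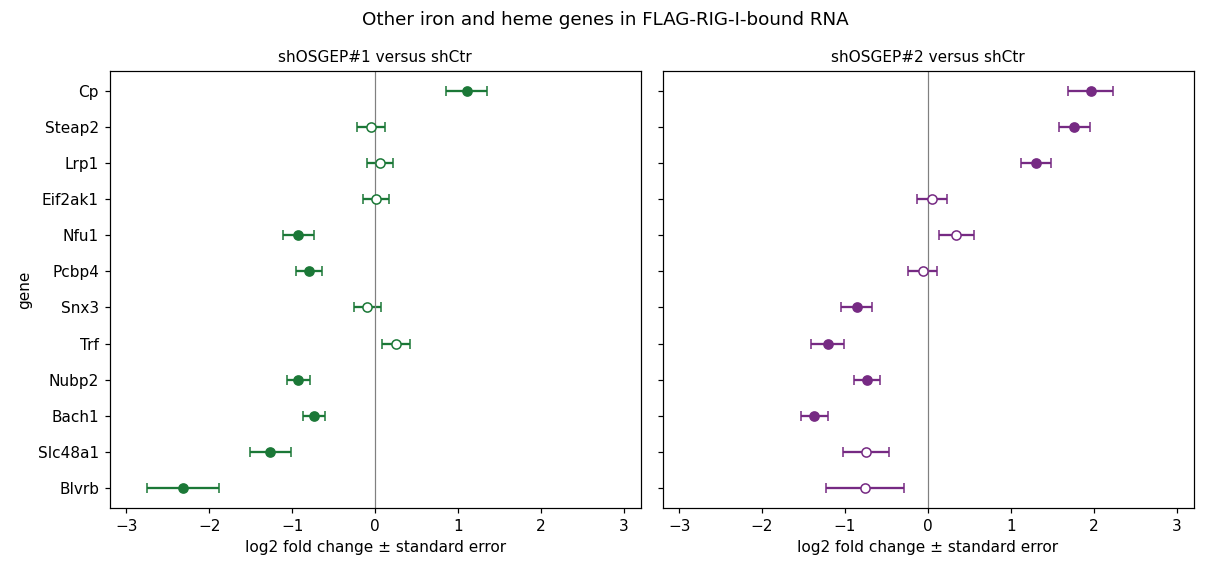
Log2 fold change (horizontal axis) with its standard error for 12 other iron and heme genes, shOSGEP#1 against shCtr on the left and shOSGEP#2 against shCtr on the right, from edgeR over 8 libraries; filled points passed an adjusted p under 0.01. Both panels share the shCtr libraries; Cp lies above 0 in both panels (1.10 and 1.96) and Bach1 below (−0.74 and −1.37).

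For 3 members the genes with the most similar pattern were listed, by Pearson correlation of log2 CPM over the 8 libraries among 9330 tested genes with a mean of at least 10 CPM. These libraries share their groups, so r describes the pattern and carries no p. For Ftl1 they were Natd1 (r = 0.989), Ap5s1 (0.989), Stard9 (0.986), Myo19 (0.983) and Eno3 (0.982), each with its mean CPM highest in shCtr and lowest in shOSGEP#1. For Hmox1 they were Nat9 (0.988), Pdk1 (0.961), Rilpl1 (0.958), Fam83h (0.958) and Alas1 (0.955), the last being the enzyme that starts heme synthesis outside the erythroid lineage. For Tfrc they were Cript (0.932), Cnot6l (0.924), Tmc8 (0.908), Eef1e1 (0.904) and Mrto4 (0.902), each with its lowest mean in shOSGEP#2.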

How the data were processed

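RNA bound to FLAG-tagged RIG-I was measured by RIP-seq in 9 libraries of B16F10 cells. The authors used TrimGalore for trimming, STAR for alignment to GRCm39 and Salmon for quantification, and the deposited values are counts in whole numbers for each gene. Group and replicate of each library follow its label. The genes, the lists and the markers were chosen with earlier results of these data known.

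CPM scales each count to the total of its library. The test was the quasi-likelihood test of edgeR 4.0.16 in R 4.3.3, after TMM normalization and filterByExpr, with 1 coefficient per group and no covariate, on 8 libraries. The library of shOSGEP#2 replicate 2 was left out for its depth and shown apart. Genes were called at an adjusted p (Benjamini-Hochberg) under 0.01. Standard errors are the absolute log2 fold change over the square root of F. The replicates are described as independent experiments. The p-values measure the spread between these libraries, 2 of them for shOSGEP#2.

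The genes named were the 10 members, Osgep, Ddx58, Eif2ak1, up to 5 higher and 5 lower other iron genes with the largest log2 fold change past the threshold for each hairpin against shCtr, and the 5 genes most like Ftl1, Tfrc and Hmox1. A gene that this rule names is not reported here. Any other gene was named after its values were seen. The alternatives were all 9 libraries (edgeR, and limma 3.58.1 voom with sample quality weights), DESeq2 1.42.0, RLE, library totals without TMM, no filter, an adjusted p under 0.05, a minimum of 10 counts in each library, only the groups compared, the replicate block and each library left out in turn. The tests were run on simulated counts in which 200 genes were set to differ by 2 on the log2 scale. Every simulated gene had the same dispersion and the mean level of shCtr, and no library stood apart. The share recovered in the real libraries can therefore not be read from these counts. For shOSGEP#1 against shCtr, edgeR recovered 198 with 3 false calls among 12367 genes tested and DESeq2 197 with 6 among 14759. For shOSGEP#2 against shCtr, edgeR recovered 195 with 1 false call among 12367 and DESeq2 193 with 8 among 13042.

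For names, transcripts and codons the GENCODE annotation was used, which is on GRCm38 while the counts are on GRCm39. Identifiers were matched (22237 of 22396 had a name), 21360 genes had a coding transcript, and no coordinates are given. The depth per library and the floor of 3 counts stand with the values.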

Additional observations from a re-analysis of the deposited data

Results flagged for a closer look

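For 5 of the 82 other iron and heme genes tested (6.10%, beside 10.8% of all genes tested) the log2 fold change of shOSGEP#2 against shOSGEP#1 itself passed the edgeR threshold, so for these 5 the hairpins differed. The values were 4.92 for Scara5 (a ferritin receptor), 1.81 for Steap2, 1.27 for Nfu1, 1.24 for Lrp1 and −1.46 for Trf, with edgeR adjusted p = 0.00358, 0.000172, 0.00156, 0.00074 and 0.000658. Scara5 rests on few counts, from 2 to 6 in the shOSGEP#1 libraries and 79 and 54 in shOSGEP#2 replicates 1 and 3. Its call was kept in 4 of 8 fits that leave out a library. The call of Nfu1 was lost without shOSGEP#2 replicate 1, and those of Steap2, Lrp1 and Trf held in all 8 fits.

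In shOSGEP#2 replicate 2, the library outside the comparisons, 6 of the 58 genes looked at were above every shCtr library beyond counting error. Hba-a1 had 807 CPM and Hbb-bs 43.9 CPM, against at most 0.383 and 0.0718 CPM in shCtr. Sox10 had 1090 CPM, Lrp1 288 CPM, Scara5 79.1 CPM and Col1a1 68.5 CPM. Hba-a1 was also at 13.4 CPM in shOSGEP#1 replicate 3 and 11.5 CPM in shOSGEP#2 replicate 3. Of the genes that edgeR called higher for shOSGEP#2 against shCtr among the other iron genes, Lrp1 was thus high in this library too, and Steap2 and Cp had 0 counts in it, against 114 and 105 CPM and 79.1 and 133 CPM in shOSGEP#2 replicates 1 and 3. The source of these counts was not tested.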

How the results depend on the processing

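Counts are given in the order shOSGEP#1 against shCtr, shOSGEP#2 against shCtr, and shOSGEP#2 against shOSGEP#1. The edgeR fit over 8 libraries called 1232, 1217 and 1375 genes, 2, 0 and 0 of the 10 iron genes, and 7, 8 and 5 of the other iron genes. With all 9 libraries edgeR called 0 in every one of these, with 620, 1240 and 1325 of 12337 genes, 3, 2 and 0 of the 10 and 1, 4 and 4 of 79 other iron genes at an unadjusted p under 0.05. The common dispersion was then 0.42 against 0.0692. On all 9 libraries, voom with sample weights called 3317 genes, 4 of the 10 and 15 other iron genes for shOSGEP#1, and 1 of the 10 for shOSGEP#2.

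DESeq2 called 2420, 2395 and 2595 genes and 4, 2 and 2 of the 10, and 11 other iron genes in both the first and the last comparison. At an adjusted p under 0.05, edgeR called 2797, 2674 and 2952 genes, 4, 2 and 1 of the 10, and 14 other iron genes in the first and the last comparison. A looser threshold calls more by construction. With no filter, 1 of the 10 was called in each of the last 2 comparisons and 10 other iron genes in the last. With only the groups compared in the fit, the last comparison had 737 genes and 1 of the 10, and shOSGEP#2 against shCtr had 5 other iron genes. Apart from the looser threshold, the cause was not tested.

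With each library left out in turn, the genes called ranged from 318 to 1458, 518 to 1471 and 743 to 1504, those of the 10 from 1 to 3, 0 to 1 and 0 to 2, and the other iron genes from 0 to 9, 5 to 8 and 4 to 6. The lowest count for shOSGEP#1 came without shCtr replicate 2, where edgeR called 0 other iron genes with 19 of 82 at an unadjusted p under 0.05. Where 1 shOSGEP#2 library remains, it is assumed to vary like the other groups, which supply the spread. Counts within 1.5 times those above came from RLE, library totals without TMM and at least 10 counts in every library. Library totals moved the split for shOSGEP#2 against shCtr to 901 higher and 375 lower (70.6% higher), from 721 and 496 (59.2%). They also lost the calls of Nubp2 and Snx3 there, as did the fit with only the groups compared.

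Some log2 fold changes changed sign, none of them past the threshold on either side. With all 9 libraries, Nfu1 had −0.12 and Eif2ak1 −0.51 for shOSGEP#2 against shCtr, and Eif2ak1 −0.51 against shOSGEP#1. Library totals gave Pcbp4 0.029 for shOSGEP#2. For shOSGEP#1, voom gave Steap2 0.022, Lrp1 −0.038 and Eif2ak1 −0.026. With a library left out, shOSGEP#1 values ran from −0.18 to 0.055 for Steap2, −0.058 to 0.18 for Lrp1 and −0.089 to 0.14 for Eif2ak1. For shOSGEP#2, Eif2ak1 ran from −0.11 to 0.19 against shCtr and from −0.12 to 0.18 against shOSGEP#1, and Osgep from −4.75 to 0.32 against shOSGEP#1. Members also crossed 0 for shOSGEP#2 against shOSGEP#1 with a library left out. Fth1 ran from −0.0088 to 0.29, Ireb2 from −0.16 to 0.19, Slc11a2 from −0.019 to 0.24 and Steap3 from −0.51 to 0.59. The sign changes of Slc11a2 and Steap3 against shCtr are given above. The cause was not tested.

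Libraries with the same replicate number were not taken as pairs, since that asked for a correlation over 0.1 in every same-number pair. Of 7 pairs with the same number in different groups 3 had a correlation over 0.1 (−0.00337 to 0.18), and of 14 with different numbers 1 had (−0.18 to 0.144). The correlations are of deviations from the group mean, so these pairs are not independent. With 2 libraries in shOSGEP#2, its replicates 1 and 3 mirror each other, with 0.18 and −0.18 against shCtr replicate 1. The rule thus cannot show that pairing is absent. A shared number was not always the best match: shCtr replicate 1 had 0.0684 with shOSGEP#1 replicate 2 and −0.000495 with replicate 1. With a replicate block, edgeR called 1 of the 10, Ftl1, for shOSGEP#2 against shCtr, lost the calls of Nubp2 and Snx3 there (6 other iron genes in place of 8), and called 1380, 1238 and 1393 genes. The depth of shOSGEP#2 replicate 2 puts 3 counts at 5.27 CPM, so lower levels cannot be read there.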
